A study of Arabidopsis thaliana with 22 samples.

Results

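In leaf 10 of Arabidopsis thaliana, 74 genes had like transcript levels at all 3 leaf stages under ambient CO2 and differed between CO2 levels in mature leaves. Of these, 31 were higher and 43 were lower at elevated CO2. The genes were chosen by their values. The ambient group means of the 3 stages had to lie within 0.5 of each other on the log2 scale, called stage-stable here. In mature leaves the 4 elevated arrays had to lie all above or all below the 4 ambient arrays, with group means at least 0.3 apart. Only probe sets annotated to exactly 1 gene were used. There were 6782 such probe sets among the 12511 tested, 2246 of them were stage-stable, and the 74 genes came from 74 different loci.

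Transcripts were measured on Affymetrix arrays, which report each gene through a set of short oligonucleotide probes. The plants were wild-type Col-0, and leaf 10 was taken at 3 stages: dissected primordia, leaves in rapid expansion and mature, fully expanded leaves. Each stage was sampled at a constant 370 ppm CO2 (ambient) and at a constant 750 ppm (elevated), with 4 arrays per CO2 level in primordia and mature leaves and 3 in expanding leaves. All plants spent their first 7 days at 370 ppm and were then divided at random between a chamber for each CO2 level, so CO2 level and chamber cannot be told apart. A primordia replicate pooled 20 plants, and no transgene or second genotype was used. The arrays of a group are labelled as biological replicates. The series concerns dark respiration of leaves under elevated CO2 and whether its changes differ between leaf stages.

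Leaf development turns over much of the transcriptome, as dividing cells give way to expanding and then to photosynthetic cells. Genes whose transcripts stay level through this course often serve needs common to most cells, such as membrane traffic, protein folding, core metabolism and RNA maturation. Elevated CO2 raises photosynthesis and leaf carbohydrate in this species, and a change of growth CO2 is known to alter leaf transcripts.

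Values are log2 levels relative to the median probe set of the same array, which is 0, so levels of different genes are not compared here. The array is a bulk measure, in which fewer cells of a type and less RNA per cell cannot be told apart. Among mature arrays, elevated replicates 3 and 4 were set off: their second principal component was 36.3 and 27.7, and that of the remaining mature arrays was -7.74 to 14.9. Their 3′ minus 5′ signal of control transcripts was 1.13 and 1.11, against 1.36 to 1.42 on the other mature arrays, and its part in the results was not tested. Few cell type markers had a named probe set. The dividing-cell markers AUR1, a mitotic kinase, and PRL, an MCM helicase subunit, had array means between 1.10 and 1.45 in primordia and between -2.42 and -1.42 in mature leaves. In expanding leaves the array mean of the 2 genes did not overlap between CO2 levels. It was at -0.656 to -0.376 under ambient and -1.02 to -0.798 under elevated CO2. Of all probe sets, 12.9% did not overlap at this stage with the elevated arrays lower. The measured guard cell marker was FMA and the measured trichome marker TRY, with TRY at a log2 change of -0.66 ± 0.18 (SE) in mature leaves. None of the markers of phloem, xylem, meristem, epidermis, mesophyll or senescing leaves was measured on a named probe set.

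The rule used the mature CO2 difference and the ambient stage means, so both are described without a test. Over all 12511 probe sets, 2.54% met the non-overlap and 0.3 limits as higher and 2.73% as lower. The 31 and 43 were drawn from the 2246 stage-stable named probe sets, and were smaller shares of these. Among the 6782 named probe sets regardless of stage, 157 were higher and 186 were lower by the same limits. Of the 74 genes, limma called 19 of the higher and 28 of the lower set in mature leaves, where it called 3.9% of all probe sets, and nothing is read from this since the rule chose on that contrast. The choice is sensitive to single mature arrays: without ambient replicate 4 the rule took 63 higher and 101 lower genes, without elevated replicate 1 it took 56 and 72, and without elevated replicate 2 it took 77 and 97. With fewer arrays the non-overlap limit is easier to meet, but leaving out an array did not only add genes. Without ambient replicate 1 the rule took 24 higher genes and lost 11 of the 31, and without elevated replicate 3 it took 28 and lost 7. Of the 43 lower genes 10 were lost in each of these cases, though the rule then took 47 and 50.

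**Figure D1:**
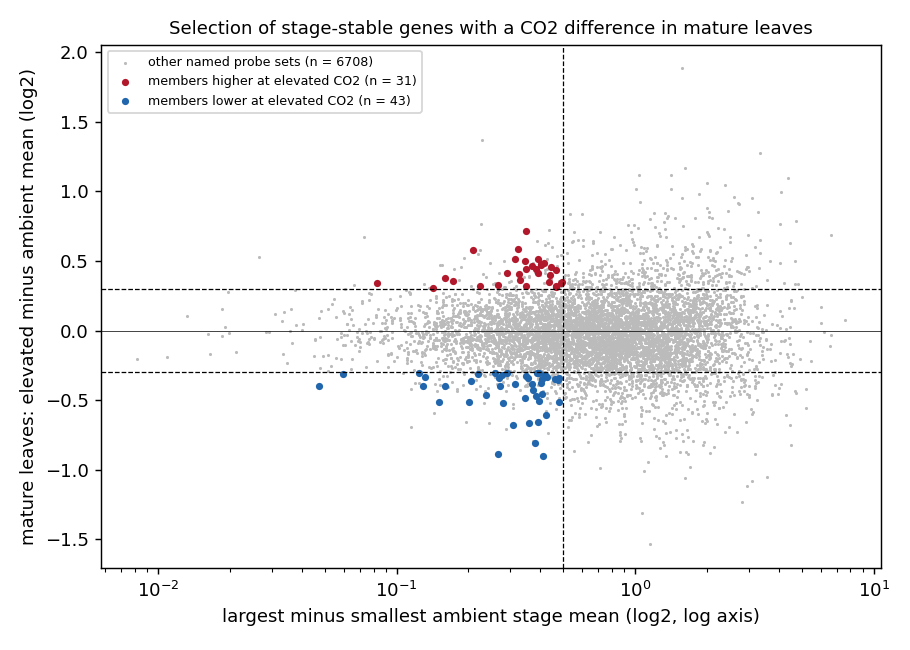
Each point is a named probe set, with the largest minus smallest ambient stage mean (log2, log axis) against the elevated minus ambient mean in mature leaves (log2). Dashed lines mark the limits of 0.5 and 0.3. The 31 red and 43 blue points are the genes described, to the left of 0.5 and beyond 0.3, and the grey points in the same areas had overlapping arrays.

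Genes lay close to each limit on both sides. Just inside the 0.3 limit were NET1D at a difference of 0.304 and AT5G01020 at -0.301, and just outside it AT4G24440 at 0.297 and AT3G61690 at -0.2997. Just inside the 0.5 limit were AT3G58630, whose ambient stage means spanned 0.495, and SETH3 at 0.481. AT3G15810 at 0.525 and AT3G17950 at 0.515 fell just outside. A further 46 higher and 58 lower stage-stable genes did not overlap but were under 0.3 apart, and 63 and 92 were 0.3 apart but overlapped.

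The mature differences were modest in both sets. They include genes of low level: 10 of the 31 higher and 18 of the 43 lower genes were lost without the probe sets of lowest mean level. The higher set ran from 0.30 to 0.72 with a median of 0.41, or 1.23-fold to 1.65-fold. The lower set ran from -0.90 to -0.30 with a median of -0.39, or 0.536 to 0.812 times the ambient level. The gap between the nearest elevated and ambient arrays had a median of 0.0913 in the higher and 0.0957 in the lower set, and the smallest gaps were 0.00391 (AT1G32460) and 0.00196 (CFM3B).

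Among enzymes of carbon metabolism, ACS, the plastid acetyl-CoA synthetase, was higher in mature leaves. Its ambient arrays were at 1.34, 1.44, 1.57 and 1.63 and its elevated arrays at 2.03, 1.96, 2.25 and 2.06, a difference of 0.58. The nearest arrays were 0.328 apart, the widest gap of the higher set, and without elevated replicates 3 and 4 the difference was 0.50. AT4G26910, the succinyltransferase subunit of the 2-oxoglutarate dehydrogenase complex of the tricarboxylic acid cycle, stood at 1.05, 1.28, 1.41 and 1.59 under ambient and at 1.91, 1.65, 1.91 and 1.91 under elevated CO2. Elevated replicate 2 was close to the highest ambient array, 0.0605 away, and the other 3 elevated arrays were well above it. Of other enzymes, AT2G04400, indole-3-glycerol phosphate synthase of tryptophan synthesis, differed by 0.35, and AT1G14210, a T2-type ribonuclease, by 0.38. AT1G59960, an aldo-keto reductase, differed by 0.34.

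Protein folding and lipidation gave the member of the higher set with the largest difference over all mature arrays. AT5G48570, a heat-induced peptidyl-prolyl isomerase of the FKBP type, was at -2.98, -2.13, -1.82 and -1.83 on the ambient and -1.55, -1.24, -1.54 and -1.56 on the elevated mature arrays. The difference was 0.72 (1.65-fold), with ambient replicate 1 far below the other ambient arrays and elevated replicate 2 above the other elevated ones. Without ambient replicate 1 the difference of AT5G48570 was 0.46, below that of ACS, which was then 0.53. AT5G48570 is also a gene of low level, with group means from -2.66 to -1.47 over the stages and CO2 levels. AT3G60800, a protein S-acyltransferase, which attaches lipid to proteins, was at 0.02, 0.15, 0.01 and 0.20 against 0.27, 0.45, 0.81 and 0.76. Elevated replicates 3 and 4 were the high ones here, and the difference of 0.48 was 0.26 without them. AT5G06410, a co-chaperone of iron-sulphur cluster assembly, differed by 0.31 (0.21 without those arrays, and 0.21 without replicate 3 alone).

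Membrane traffic and the cytoskeleton held 5 of the higher and 1 of the lower set. AT2G20760, a clathrin light chain, which stabilises the coat of endocytic vesicles, had mature ambient arrays at 1.58, 1.97, 1.83 and 1.92 and elevated arrays at 2.12, 2.17, 2.27 and 2.12. Its ambient stage means spanned only 0.0825, the smallest span of the higher set. SEC22, a SNARE that fuses vesicles between the endoplasmic reticulum and the Golgi, was at 1.54, 1.58, 1.72 and 1.81 against 1.88, 1.89, 2.11 and 2.04. The elevated arrays of both genes lay above every ambient one, with a difference of 0.34 for AT2G20760 and 0.32 for SEC22. VPS60.1, an ESCRT-related protein of endosomal sorting, differed by 0.41, the ELMO-family gene AT3G60260 by 0.42 and NET1D, which binds actin, by 0.30. TUB6, a beta-tubulin, was the lower one, at 2.19, 2.38, 2.31 and 2.09 against 1.96, 2.02, 1.73 and 1.90.

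Other members of the higher set included a pair of A20/AN1 zinc finger proteins, a family tied to stress responses in plants. AT4G22820 differed by 0.48, which was 0.20 without elevated replicates 3 and 4, and AT2G27580 by 0.41 (0.31 without them). AT5G10290, a leucine-rich repeat receptor kinase, stood at -0.09, -0.13, -0.07 and 0.12 against 0.21, 0.80, 0.42 and 0.22, a difference of 0.46 in which elevated replicate 2 was the highest. AT1G05170, of a galactosyltransferase family, differed by 0.59 and AT3G58630, a trihelix transcription factor, by 0.35 (0.23 without elevated replicates 3 and 4, and 0.23 without replicate 4 alone). AT1G70770 (0.52), AT5G16380 (0.50), AT5G51620 (0.47) and AT4G32030 (0.46) completed the 10 largest. Of these 4, AT5G16380 moved most without elevated replicates 3 and 4, to 0.22.

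The lower set held regulators with the largest differences of all 74 genes. AT4G01460, a basic helix-loop-helix transcription factor, was at 0.50, -0.25, 0.11 and -0.06 on the ambient and -0.50, -0.43, -1.40 and -0.96 on the elevated mature arrays. Elevated replicates 3 and 4 were the lowest, and the difference of -0.90 was -0.54 without them. AT1G56720, a protein kinase, was at -0.89, -0.70, -1.003 and -1.07 against -1.94, -1.46, -2.01 and -1.82. Its groups were 0.384 apart at the nearest arrays, the widest gap of all 74 genes, and its difference of -0.89 was -0.78 without elevated replicates 3 and 4.

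Kinases and phosphatases made up 5 of the lower and 1 of the higher set. Besides AT1G56720 they were the kinases AT5G01020 (-0.30), AT5G50180 (-0.31, and -0.20 without elevated replicates 3 and 4) and AT5G56790 (-0.38), and AT3G54930, a regulatory subunit of protein phosphatase 2A (-0.51). Genes of transcription and nucleic acid handling made up 7 of the lower and 1 of the higher set, with the ribonuclease AT1G14210 counted among metabolic enzymes instead. Among them were CFM3B, a CRM-domain splicing factor (-0.31), OTP70, a pentatricopeptide repeat protein of organelle RNA (-0.31), GYRB3, named as a gyrase subunit (-0.31), AT5G51080, an RNase H family protein (-0.40), and the transcription factor family members AT1G49560 (GARP, -0.34) and AT4G00270 (GeBP, -0.35).

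Enzymes that build or trim glycans made up 4 of the lower and 1 of the higher set. AT1G53290, of a galactosyltransferase family, had the smallest ambient span of all 74 genes, 0.0473. Its ambient mean was 0.40 in primordia, 0.42 in leaves that were expanding and 0.38 in mature ones, and the mature elevated mean was -0.02, a difference of -0.40. AT1G21480, of the exostosin family, was at -0.48, -0.44, -0.41 and -0.59 against -0.88, -0.98, -1.09 and -0.90. Each elevated array of AT1G21480 was at least 0.292 below each ambient one. AT3G06440, another galactosyltransferase, differed by -0.38 (-0.23 without elevated replicates 3 and 4) and AT5G13980, an alpha-mannosidase, by -0.36.

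Methyltransferases were AT1G31850 (-0.52), AT5G04060 (-0.43) and AT3G13440 (-0.39), all in the lower set. Transporters too were in the lower set: AT2G21340, a MATE-type exporter (-0.47), MTP11, a manganese transporter (-0.33), and AT1G72820, a mitochondrial carrier (-0.30). AT5G63290, a coproporphyrinogen oxidase-like enzyme, differed by -0.65, which was -0.40 without elevated replicates 3 and 4. AT4G26555, an FKBP-type isomerase of the chloroplast, differed by -0.45 and SETH3, a sugar-phosphate isomerase-like protein, by -0.34. The other large differences were AT1G62045 (-0.81), AT1G21060 (-0.68, and -0.40 without those arrays), AT2G04850 (-0.66), AT2G31150 (-0.61), AT3G20820, a leucine-rich repeat protein (-0.52), and the F-box gene AT4G00755 (-0.52). Of these, AT1G62045 and AT2G04850 were of low level, with group means from -3.50 to -2.09 and from -2.57 to -1.78. These role groups were put together after the genes were known, 30 of the 74 genes were given no role, and no group was tested.

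**Figure D2:**
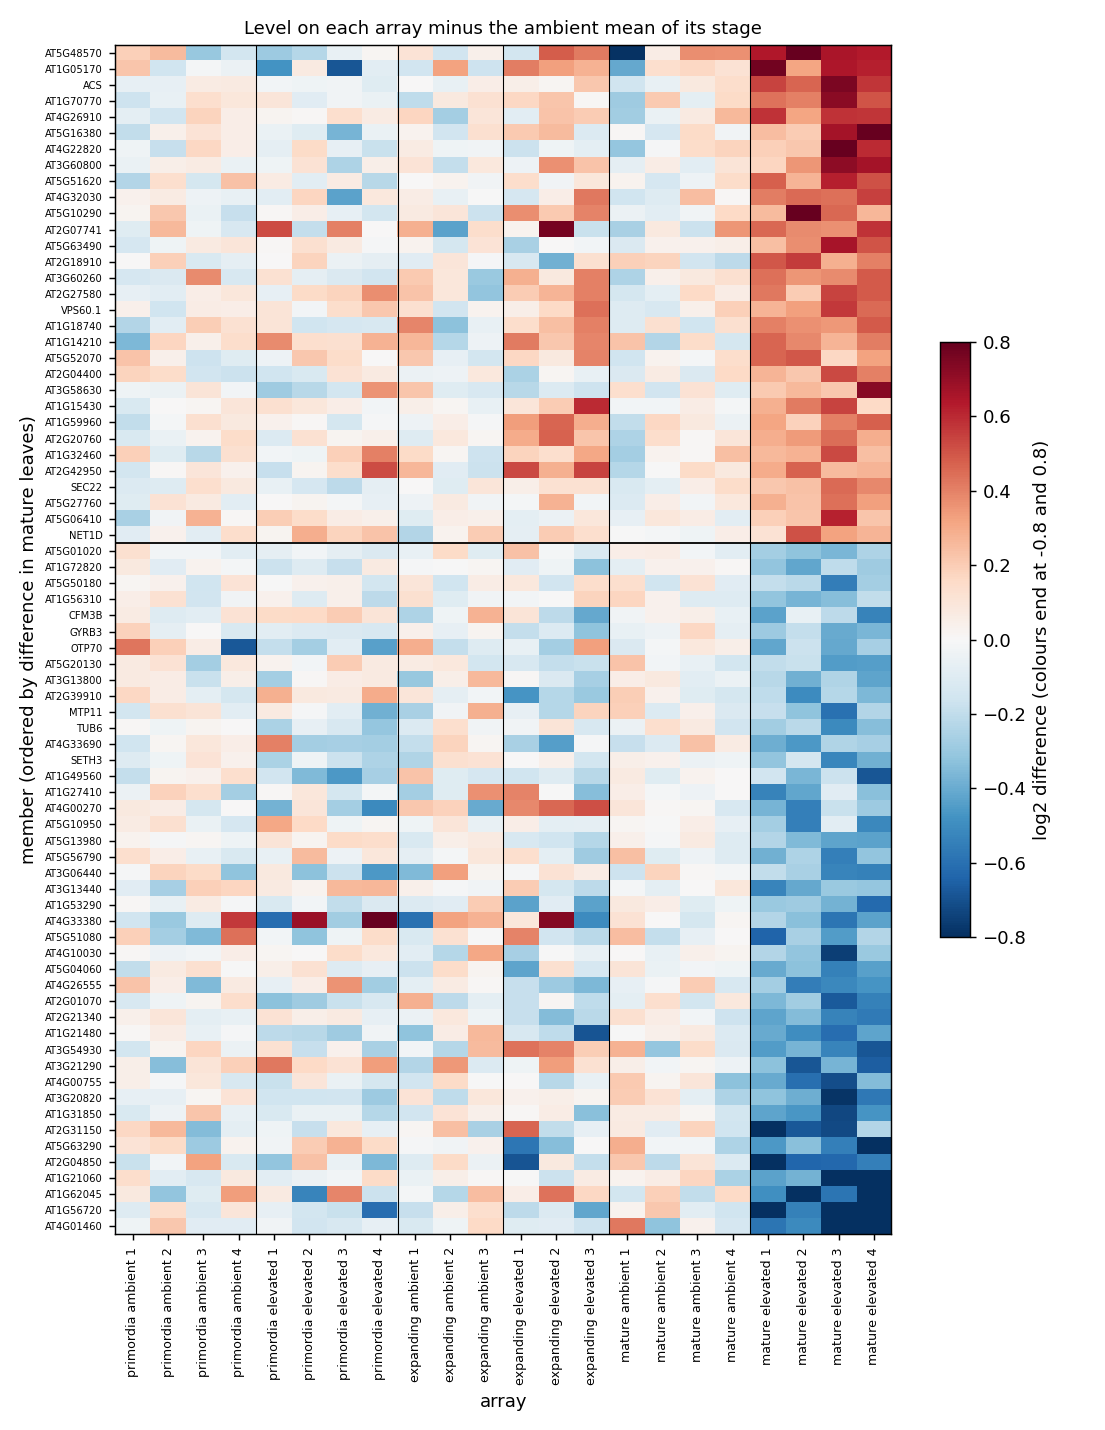
Rows are the 74 genes in order of their mature difference and columns the 22 arrays. Colour is the level minus the ambient mean of the same stage (log2, colours end at -0.8 and 0.8). The rule fixes the mature elevated columns, all red for the 31 higher and all blue for the 43 lower genes, and the columns of primordia and expanding leaves show where that colour was absent or weaker.

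In expanding leaves most genes lay on the same side as in mature leaves, though no gene passed the test. Of the 31 higher genes, 25 (80.6%) had a positive CO2 difference in expanding leaves, with a median of 0.18. Among the 43 lower genes 30 (69.8%) had a negative one, with a median of -0.09. Over all 12511 probe sets 44.1% were positive, with a median of -0.03, and over the 2172 other stage-stable genes 45.1% were positive. The elevated arrays of this stage took no part in the rule, while its ambient arrays entered it through the stability limit. The measured cell type markers had lower means at elevated CO2 at this stage, and none was called. The dividing-cell markers AUR1 and PRL were at -0.63 ± 0.27 and -0.22 ± 0.15, and the guard cell marker FMA at -0.52 ± 0.18. The trichome marker TRY was near 0, at -0.08 ± 0.21. FMA ran from -0.600 to -0.525 on the ambient and from -1.39 to -0.878 on the elevated expanding arrays. On the first principal component the elevated expanding arrays (-32.4 to -23.6) lay nearer to the mature arrays (-63.9 to -50.2) than the ambient expanding arrays did (-21.5 to -10.5). The part of these shifts in the signs of the 74 genes was not tested. When the rule was applied without mature elevated replicates 3 and 4, it took 39 higher genes (20 of them shared), of which 69.2% were positive, and 84 lower genes (28 shared), of which 63.1% were negative.

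In the joint limma fit of all 22 arrays, 0 of the 74 genes were called for CO2 in expanding leaves after Benjamini-Hochberg adjustment, as were 0% of all probe sets. At an unadjusted p under 0.05 there were 15 of 74 (20.3%), against 14.7% of all probe sets and 6.91% of the other stage-stable genes. The 15 were 7 positive and 0 negative in the higher set, and 2 positive and 6 negative in the lower set. Of all probe sets 6.11% were positive and 8.58% negative at that level, and of the other stage-stable genes 3.18% and 3.73%. With array weights limma called 1 of the 74, AT1G59960, and 3.09% of all probe sets (387), so the members' share was below that of all.

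Arrays did not overlap in expanding leaves for 5 of the 31 higher genes (16.1%), all higher at elevated CO2, where 7.43% of all probe sets were, and for none in the other direction, where 12.9% of all were. Of the other stage-stable genes 5.34% did not overlap as higher and 7.04% as lower. AT1G59960 was at 0.16, 0.25 and 0.19 against 0.54, 0.66 and 0.49, a change of 0.36 ± 0.11 (SE, n = 3 per group; limma adjusted p 0.153). The clathrin light chain gene AT2G20760 was at 1.70, 1.89 and 1.82 against 2.10, 2.28 and 2.02, a change of 0.33 ± 0.11 (limma adjusted p 0.173). The receptor kinase gene AT5G10290 stood at 0.47, 0.50 and 0.23 against 0.77, 0.61 and 0.80. All elevated arrays of these 3 genes were above all ambient ones, by the narrowest margin in AT5G10290. The others were AT2G42950 at 0.45 ± 0.15 and AT1G15430 at 0.30 ± 0.11.

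Of the 43 lower genes, 6 (14.0%) had expanding arrays that did not overlap with the elevated ones below. This was close to the 12.9% of all probe sets, and above the 7.04% of the other stage-stable genes. AT2G39910 was at -1.42, -1.59 and -1.54 against -1.99, -1.75 and -1.82, a change of -0.33 ± 0.11 (limma adjusted p 0.196). The MATE exporter gene AT2G21340 was at 0.85, 0.98 and 0.86 against 0.71, 0.55 and 0.68, a change of -0.25 ± 0.09. The chloroplast isomerase gene AT4G26555 was at -0.28 ± 0.15, GYRB3 at -0.20 ± 0.09, the alpha-mannosidase gene AT5G13980 at -0.17 ± 0.08 and the carrier gene AT1G72820 at -0.15 ± 0.09. In AT1G53290 the elevated mean was 0.11 ± 0.19 (SD, n = 3) and the ambient mean 0.42 ± 0.18 (SD, n = 3), and 1 elevated array lay within the ambient ones.

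AT4G00270, of the GeBP transcription factor family, ran the other way in expanding leaves. It was at -1.11, -1.14 and -1.73 under ambient and -0.94, -0.87 and -0.81 under elevated CO2, a change of 0.46 ± 0.15 (limma adjusted p 0.186). In mature leaves it was at -0.82, -0.91, -0.90 and -1.04 against -1.29, -1.47, -1.09 and -1.21. The elevated arrays were thus all above the ambient ones in expanding leaves and all below them in mature leaves. AT3G54930, the phosphatase subunit, was at 0.34 ± 0.15 in expanding leaves with overlapping arrays, against its mature difference of -0.51.

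By role, all 5 of the higher membrane traffic and cytoskeleton genes were positive in expanding leaves, with a median of 0.21, and 0 of the 3 lower transporters and 0 of the 3 lower methyltransferases were positive. None of these genes was called, and in the whole sets 80.6% of the higher genes were positive and 69.8% of the lower negative. Groups this small cannot be told apart from those shares. Of the metabolic enzymes, with which the ribonuclease gene AT1G14210 was counted, 4 of 5 higher and 0 of 2 lower genes were positive. Of the 5 lower kinases and phosphatases 3 were positive, with a median of 0.02.

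**Figure D3:**
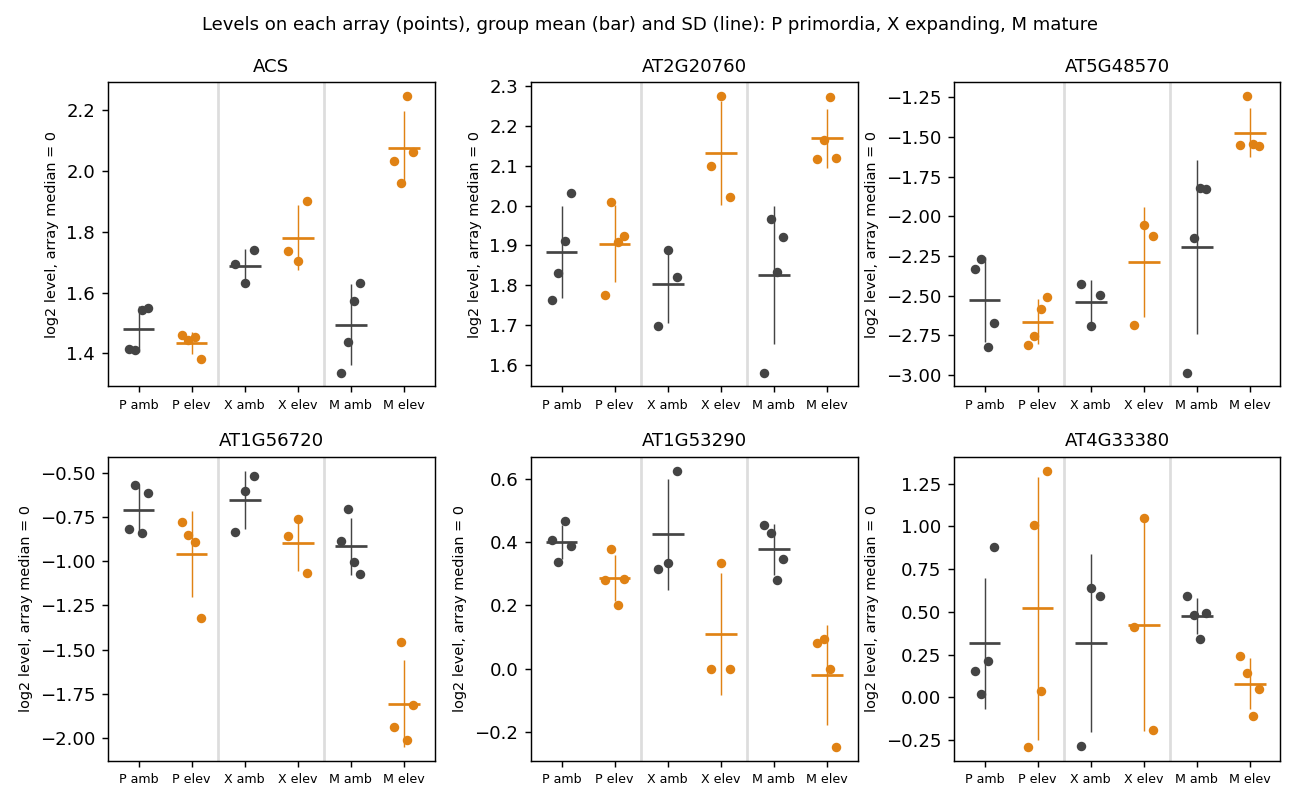
Levels on each array (points), group means (bars) and SD (lines) of 6 genes by stage and CO2 level, as log2 relative to the array median. ACS, AT2G20760 and AT5G48570 are higher and AT1G56720, AT1G53290 and AT4G33380 lower in mature leaves at elevated CO2, while their ambient means stay within 0.5 over the stages.

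In primordia the higher set was split between both directions, and no gene of either set passed the test. Of the 31 higher genes 14 (45.2%) were positive, with a median of -0.02, where 52.0% of all probe sets were positive. Of the 43 lower genes 28 (65.1%) were negative, with a median of -0.06. With the genes taken without mature elevated replicates 3 and 4, 16 of 39 (41.0%) were positive and 43 of 84 (51.2%) negative. The share of negative lower genes thus moved with the mature arrays used. With fewer arrays the non-overlap limit is also easier to meet, and these were not told apart. The differences ran from -0.29 to 0.23 in the higher and from -0.31 to 0.26 in the lower set.

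In the limma fit, 0 of the 74 genes were called for CO2 in primordia, where 0.00799% of all probe sets were, and every adjusted p of the 74 was 0.99957. At an unadjusted p under 0.05 there were 0 of 31 and 3 of 43, all 3 negative. Of all probe sets 3.77% were under it, 1.61% positive and 2.17% negative. The groups did not overlap for 3 of the lower genes, each lower at elevated CO2, as were 1.72% of all probe sets, and for 0 of the higher genes, against 1.5% and 1.72% of all in either direction.

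TUB6 in primordia was at 2.26, 2.22, 2.28 and 2.25 under ambient and 2.00, 2.18, 2.12 and 1.94 under elevated CO2, a change of -0.19 ± 0.09 (SE, n = 4 per group, limma fit). The ambient arrays were tight and each elevated array lay below them. AT2G01070 was at -0.68, -0.59, -0.53 and -0.41 against -0.88, -0.84, -0.73 and -0.68, nearly touching. AT3G20820 was at 2.92, 2.92, 3.00 and 3.10 against 2.82, 2.83, 2.83 and 2.69. AT1G49560, the GARP family gene, had the largest negative change of the lower set, -0.31 ± 0.11, with overlapping arrays.

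**Figure D4:**
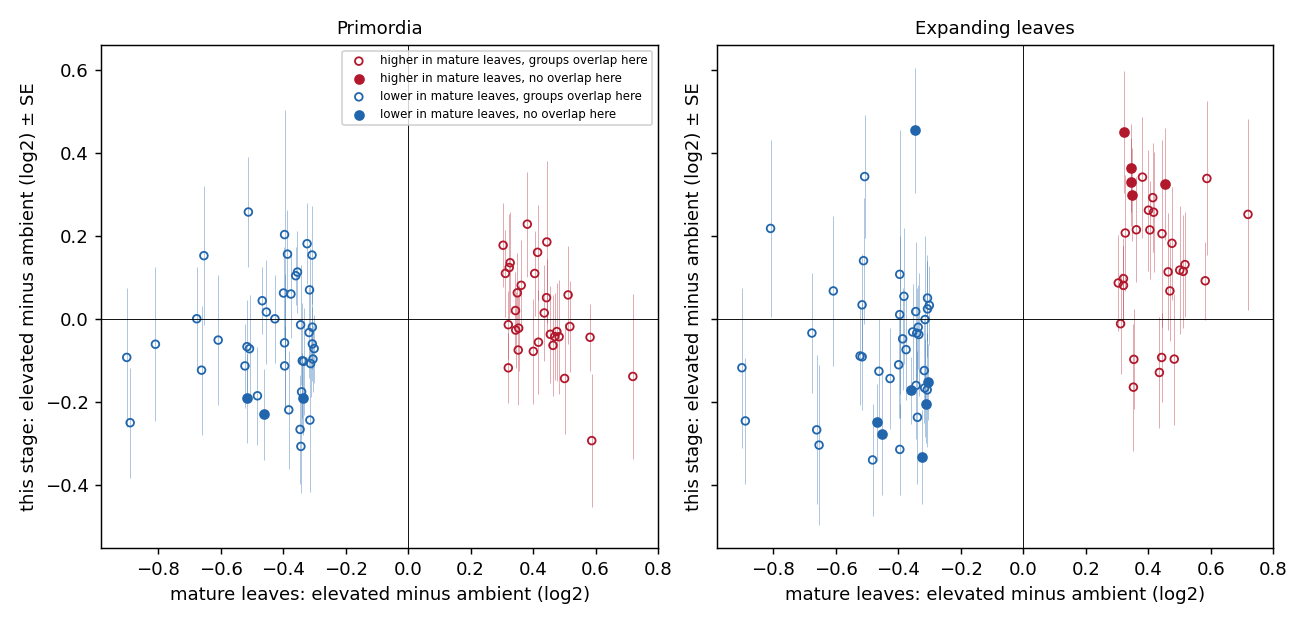
Elevated minus ambient means in primordia (left) and expanding leaves (right), with the SE of the limma fit, against the mature difference, all in log2. Filled points mark groups that did not overlap at that stage. Red points, higher in mature leaves, lie mostly above 0 in expanding leaves and on both sides of 0 in primordia.

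Taking both other stages, 11 of the 31 higher genes were positive at both and 17 of the 43 lower genes were negative at both. Over all 12511 probe sets 2518 were positive at both and 3004 negative at both. A further 14 higher genes were negative in primordia and positive in expanding leaves, and 13 lower genes were positive in primordia and negative in expanding leaves. No count of such opposite signs over all probe sets is given here, so nothing is read from the 14 and 13. ACS, at -0.04 ± 0.08 in primordia and 0.09 ± 0.09 in expanding leaves, was near 0 at both, and AT4G01460 was at -0.09 ± 0.17 and -0.12 ± 0.19. AT1G56720 was at -0.25 ± 0.13 in primordia and -0.25 ± 0.15 in expanding leaves, negative at both with overlapping arrays. The CO2 effect of expanding leaves minus that of primordia was called for 0 of the 74 genes and 0% of all probe sets in limma. At an unadjusted p under 0.05 it was 8 of 74 (10.8%), against 11.9% of all and 6.22% of the other stage-stable genes.

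Between primordia and expanding leaves at elevated CO2, a pair of groups that the rule did not use, 35 of the 74 genes (47.3%) were called by limma. In the expanding leaves 23 of them were higher and 12 lower. The share called was between those of the other sets: 69.9% of all probe sets and 35.2% of the other stage-stable genes were called. The group means were within 0.5 for 66 of the 74 (89.2%), against 47.1% of all probe sets and 91.6% of the other stage-stable genes. AT1G05170, of the galactosyltransferase family, rose most from primordia to expanding leaves: its elevated arrays were at -2.27, -1.72, -2.48 and -1.88 in primordia and -1.07, -1.15 and -1.20 in expanding leaves, a change of 0.95 ± 0.17 (limma adjusted p 5.28e-05). AT5G10290 rose by 0.77 ± 0.13 (limma adjusted p 1.39e-05). AT2G39910 fell most, with elevated arrays between -1.10 and -0.87 in primordia and between -1.99 and -1.75 in expanding leaves, a change of -0.86 ± 0.11 (limma adjusted p 3.38e-07). The arrays of these stages did not overlap in AT1G05170 or in AT2G39910.

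Mature elevated replicates 3 and 4 carried larger deviations than replicates 1 and 2. The median deviation of the higher set from the mature ambient mean was 0.30, 0.35, 0.53 and 0.49 on elevated replicates 1 to 4, and that of the lower set was -0.36, -0.37, -0.52 and -0.43. The deviation was larger on replicates 3 and 4 in 24 of the 31 higher and 32 of the 43 lower genes. Without those arrays 20 of the 31 and 28 of the 43 were still 0.3 apart. Over all probe sets the median deviation of these 4 arrays lay between -0.0311 and -0.00305. Centring each array on its median holds that value near 0, so it is no background for the size of the deviations above.

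Few members stood on gene lists written by locus for this tissue, and such lists were seen in part, since many of their genes had no named probe set. Of 41 tricarboxylic acid cycle genes 18 were measured and 12 were stage-stable, and AT4G26910 was the 1 member. In mature leaves, where limma called 3.9% of all probe sets, 3 of the 18 were called up and 0 down, at a median of 0.16. The 3 include AT4G26910, which the rule chose on that contrast. In primordia and expanding leaves 0 were called. Of 52 genes of the proteasome 9 were measured, 1 was stage-stable and none was a member. Of 19 autophagy genes 11 were measured and 1 was stage-stable, with no member. The lists of endoplasmic reticulum folding, cytosolic chaperones, starch, and SnRK1, hexokinase and TOR signalling had 1 to 4 measured genes each and no member.

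Reference genes, used to normalise transcript levels because they are taken to be steady, had 10 of 21 measured, of which 9 were stage-stable. None of the 10 was called for CO2 at any stage. AT4G33380, of this list, was a member of the lower set. Its mature arrays were at 0.59, 0.48, 0.34 and 0.49 under ambient and 0.24, 0.14, -0.11 and 0.05 under elevated CO2, a difference of -0.40 (-0.28 without elevated replicates 3 and 4). At the other stages its arrays were spread widely: the elevated primordia arrays were at -0.29, 1.01, 0.04 and 1.33 and the elevated expanding arrays at 0.41, 1.05 and -0.19. Its CO2 change was 0.20 ± 0.30 in primordia and 0.11 ± 0.35 in expanding leaves, so a change of the mature size was not detectable there.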

How the data were processed

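The deposited values are log2 expression values of 12570 probe sets on 22 arrays, made by the authors. Each array has a median of 0 over these rows. Base 2 was inferred from the range of -6.80 to 6.54, and folds assume it. Per the labels' protocols, RNA was labelled with biotin by a kit that primes from the 3′ end. For background correction, probe summarisation and genome build, the method is not given in sources used here. The number of arrays limits the precision.

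After removing 59 control probe sets, 12511 were fitted with limma 3.58.1 in R 4.3.3: 1 mean for each of the 6 groups, 16 residual degrees of freedom, Benjamini-Hochberg adjustment over all probe sets, two-sided, called at an adjusted p under 0.05. Errors of changes are moderated SEs. Probe sets were named from the platform annotation, updated to the TAIR10.1 gene table; 262 carried several genes and 5467 were unnamed here. AT2G07741 lies on the 1 probe set whose name marks probes shared between transcripts, so its value is uncertain. The code was tested on simulated data.

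Members, lists and tests were chosen with earlier results of these data known. Named are, in each direction, the 10 largest mature differences, the 5 smallest ambient spans, the 5 smallest p in primordia and in expanding leaves, genes that did not overlap there, the 3 on either side of each limit, list members, and any member beside its role group. Roles are background knowledge.

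Whether replicate numbers pair the arrays was checked by the correlation of same-numbered deviations, which ran from -0.248 to 0.261, so the numbers were not taken as pairs. Alternatives were quantile normalization, a filter on low values, array weights, only the arrays compared, a replicate block, and arrays left out. Promoter sequences were not analysed here.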

Additional observations from a re-analysis of the deposited data

Results flagged for a closer look

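Of 212 groups of 4 arrays examined (the named genes in primordia and mature leaves), 11 had 1 array set off from the other 3 by more than the limit of Dixon's test, and chance alone gives about 1 in 20 groups. On mature elevated replicate 3, AT1G31850 was at 0.30 (lowest), AT4G10030 at -1.40 (lowest) and AT5G06410 at -0.86 (highest), and on replicate 4 AT3G58630 was at -2.09 (highest). On replicate 2, AT5G48570 was at -1.24 (highest) and AT4G26910 at 1.65 (lowest). Among mature ambient arrays, AT1G05170 was at -2.03 on replicate 1 (lowest), and AT1G15430 at -1.005 and GYRB3 at -0.41 on replicate 3 (both highest). In primordia at elevated CO2, AT5G16380 was at -1.81 on replicate 3 and AT3G20820 at 2.69 on replicate 4, each the lowest.

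AT4G00270 was noted because its CO2 groups did not overlap in either expanding or mature leaves and had opposite directions, 0.46 and -0.35. The difference between these stages was not tested, since the mature contrast chose the gene.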

How the results depend on the processing

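The size of both sets depended on the limits. With ambient means within 0.4 the rule took 20 higher genes. With mature means 0.2 apart it took 56 higher and 84 lower, and with 0.4 apart 18 and 17. The members also depended on the normalization. After quantile normalization the rule took 30 higher genes (25 shared) and 40 lower genes (31 shared). It then lost 6 of the 31 and 12 of the 43. Without the probe sets of lowest mean level the rule took 21 higher and 25 lower genes. It lost 10 of the 31 and 18 of the 43, so that 46 of the 74 were among the 9383 probe sets kept. The differences and folds given above include these low genes, and how reliable they are at such levels was not tested. Leaving out 1 array gave 24 to 77 higher and 41 to 101 lower genes. Past 1.5 times were mature ambient replicate 4 (63 and 101), elevated replicate 1 (56 and 72) and elevated replicate 2 (77 and 97). Without mature elevated replicates 3 and 4 there were 84 lower genes, of which 43 were negative in primordia and 53 in expanding leaves, and 5 of the genes then chosen did not overlap in primordia. Of these 5, the higher set gave 1 lower and the lower set 2 higher and 2 lower, against 1.5% higher and 1.72% lower of all probe sets. The cause was not tested.

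At an unadjusted p under 0.05 the CO2 counts were 3 in primordia, 15 in expanding leaves and 8 for their difference, against 0 called. Array weights called 1 in expanding leaves, AT1G59960 (0.38, adjusted p 0.0459), and 387 of all 12511 probe sets (3.09%). Leaving out 1 array kept these counts at 0, and gave 26 to 38 for expanding minus primordia at elevated CO2. It left 24 to 26 and 14 to 18 higher genes positive in expanding leaves and primordia, and 27 to 34 and 26 to 30 lower genes negative. In primordia the higher set thus went from mostly negative (14 of 31 positive) to mostly positive, with 18 without ambient replicate 2 or 3. With the replicate block limma called 0 in primordia, 0 in expanding leaves, 35 for expanding minus primordia at elevated CO2 and 0 for the difference of CO2 effects. With 3 arrays per group in expanding leaves, a change of 0.36 ± 0.11 (AT1G59960) did not pass.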
